A study of Zea mays with 6 samples.

Results

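A block of 250 consecutive maize gene identifiers, at positions 27251 to 27500 of the 44303 in the table sorted in ascending order, was compared between leaves of seedlings with the genotype apl and leaves of Zheng58 seedlings. The block was chosen by the number of its genes past a threshold for a difference between apl and Zheng58, using the TPM values of all 6 libraries, so the differences inside it describe the choice and are given without a test. Of its 250 identifiers, 125 averaged 1 TPM or more over the 6 libraries and are described here. TPM is a transcript's abundance relative to all transcripts of the library, corrected for length. In all, 20411 identifiers of the series reached that mean.

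Both groups had 3 mRNA libraries, made from leaves of greenhouse plants collected 10 days after germination. The apl libraries came from plants labelled apl in the Zheng58 background and the Zheng58 libraries from Zheng58 itself, an inbred maize line used as a parent of commercial hybrids. No further treatment or allele is given for either group. The labels do not state which locus carries the apl mutation, whether it was induced in Zheng58 or crossed into it, or whether each library came from 1 plant or a pool. The spread between libraries may therefore be partly technical.

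The identifiers carry the prefix Zm00001eb and rise in steps of 10 with none missing, so a position fixes its identifier, and position 27342 is Zm00001eb273420. As background, maize gene models of this kind are by convention numbered in order along a chromosome, so that neighbouring numbers usually belong to neighbouring genes. No coordinates were used here, and positions are places in the identifier order only. None of the identifiers was paired with a gene name (0 of 44303 matched a table of 49888 maize genes), so what these genes encode is not reported and the leaf label was not checked against marker genes. In whole-leaf RNA, fewer cells of a type and less RNA per cell cannot be told apart.

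TPM carries no depth, and how many reads each library holds is unknown. The sum of the values was 930426 to 959685 TPM in a library, and 26742 to 28391 genes in apl and 26464 to 27184 in Zheng58 were above 0. Apl replicate 2 stood apart from the other apl libraries over the tested genes. Its log2(TPM + 1) values correlated at 0.885 and 0.9 with apl replicates 1 and 3, and at 0.95 to 0.955 with the Zheng58 libraries, while apl replicates 1 and 3 correlated with each other at 0.952. Zheng58 libraries correlated among themselves at 0.979 to 0.982. Genes, over which these correlations run, are not replicates. The counts below are also given without apl replicate 2.

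In the block, 17 of the 125 tested genes passed the threshold, 15 higher and 2 lower in apl, which is 13.6% of them. The threshold was an adjusted p under 0.05 in limma over all tested genes, of which 1.41% passed, 0.661% higher and 0.745% lower. The block held 0.612% of all tested genes and 5.92% of those past the threshold, for which it was chosen. Without apl replicate 2 the number in the block was 66 of 125, 50 higher and 16 lower, against 34.8% of all tested genes (20.2% higher and 14.6% lower). That background split turned with the scaling. Median-of-ratios rescaling gave 16.6% higher and 18.6% lower where the block had 43 higher and 18 lower, and quantile normalization gave 14.8% higher and 19.7% lower where the block had 40 higher and 20 lower. Every other library also counted for the number, which was 11 without apl replicate 1, 11 without apl replicate 3, and 9 without each Zheng58 library in turn.

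**Figure D1:**
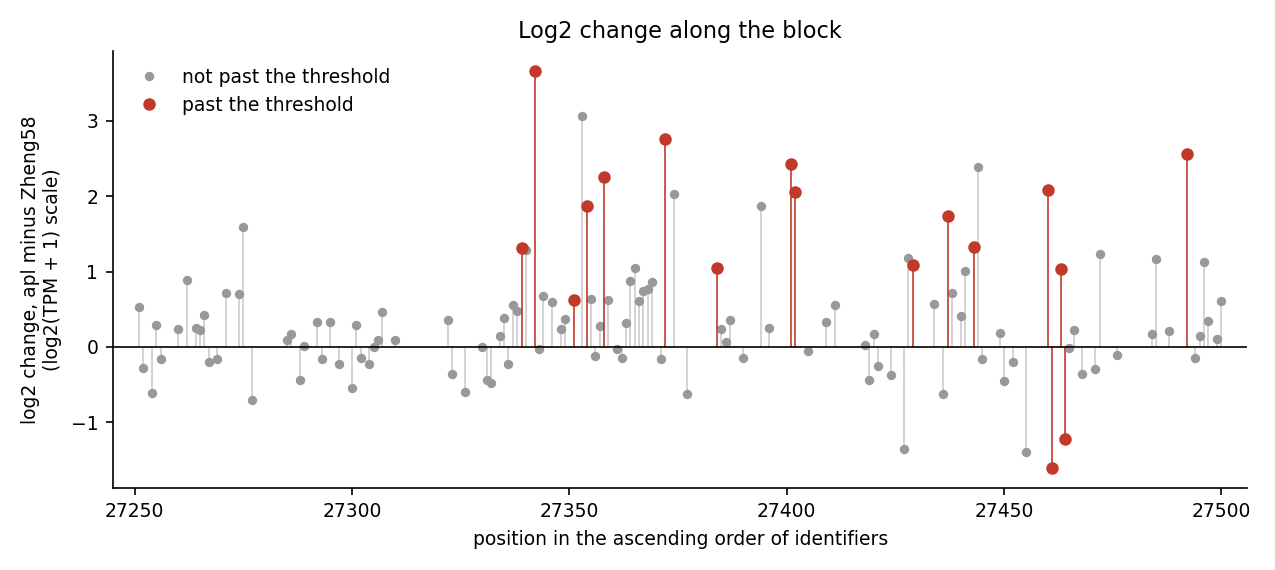
Each point is a gene of the block averaging 1 TPM or more, placed by its position in the identifier order (x axis) and its log2 change, apl minus Zheng58, on the log2(TPM + 1) scale (y axis), with the genes past the threshold in red. The red points begin at position 27339 and end at position 27492, with 15 above 0 and 2 below.

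The genes past the threshold did not fill the block evenly. The first 88 identifiers, positions 27251 to 27338, held 43 tested genes and none of the 17. All 17 lay among the 76 tested genes from position 27339 to position 27492, 22.4% of those. The first and last of the 17 set these ends, so none could lie outside them, and this raised the share inside. The 6 tested genes after position 27492 held none. Outside the block, the nearest gene past the threshold on the left stood at position 27179, 160 positions before the first, with 74 tested genes between them. On the right the nearest stood at position 27513, 21 positions after the last, and the one after it at position 27815.

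Joined where successive genes past the threshold lay at most 25 positions apart, they formed 3 groups. The first ran from position 27339 to 27402 with 9 genes, all higher in apl. The second ran from position 27429 to 27464 with 7 genes, 5 higher and 2 lower. The third joined position 27492 to position 27513, 1 higher and 1 lower, and so crossed the right edge of the block. The intervals between these groups were 27 and 28 positions, and with a limit of 50 positions all 18 genes from 27339 to 27513 formed 1 run. A limit of 100 positions gave the same ends.

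The left part of the block, positions 27251 to 27338, had a median absolute log2 change of 0.29, against 0.27 over all tested genes. Apl replicate 2 lay beyond the Zheng58 range on the side of the other apl libraries in 39.5% of its tested genes, against 39.3%. Without that replicate 47.7% of the tested genes of this part passed, against 34.8%. At its left edge, position 27251 had 2.18, 1.2 and 2.5 TPM in apl replicates 1 to 3 and 0.83, 0.93 and 1.3 TPM in Zheng58 replicates 1 to 3 (values are given in this order throughout), and the groups overlapped. Position 27252 had 19.1, 24.6 and 19.3 TPM in apl, against 26.3, 24.8 and 25.7 TPM in Zheng58. Here the groups just separated, with apl replicate 2 close to Zheng58. Outside the edge, positions 27244 and 27247 had apl values of 2.13 to 4.43 TPM inside or around the Zheng58 values of 2.11 to 3.76 TPM.

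Between positions 27251 and 27338 the apl libraries lay wholly above Zheng58 in 6 genes and wholly below in 7 of the 43, or 14% and 16.3%. Over all tested genes these shares were 12.7% and 14.6%. Position 27277 was lower, with 42.5, 57.6 and 33.3 TPM in apl and 68.9, 72.6 and 72.2 TPM in Zheng58, a log2 change of -0.70 ± 0.20 (SE). Its apl replicate 2 lay between the other apl libraries and Zheng58. Position 27293, the third most abundant gene of the block, had 156.6, 210.9 and 152 TPM in apl and 185.4, 192 and 194.8 TPM in Zheng58, with replicate 2 above and its fellows below every Zheng58 library. Position 27326 was lower throughout, with 24.6, 29.9 and 21.9 TPM in apl and 38.8, 40.3 and 37.6 TPM in Zheng58.

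One gene in this left part had a log2 change above 1, and 1 library made it. Position 27275 had 1.38, 0 and 12.1 TPM in apl and 0, 0.14 and 0 TPM in Zheng58. Apl replicate 3 alone was high, and replicate 2 was listed at 0.

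Just before the first gene past the threshold, position 27336 had apl replicate 2 on the other side of Zheng58 from its fellows, with 24.4, 46.8 and 28.1 TPM in apl and 38.9, 40 and 33.6 TPM in Zheng58. Position 27337 had 2.26, 2.33 and 2.35 TPM in apl, against 1.26, 1.21 and 1.26 TPM in Zheng58, with the 3 apl libraries nearly equal and above. Position 27338, the most abundant gene of the block, had 6205, 7103 and 5985 TPM in apl and 4648, 4419 and 4827 TPM in Zheng58, a log2 change of 0.47 ± 0.14 (SE). Neither of these passed the threshold, although in both the groups did not overlap.

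The next gene was the first past the threshold in the block, though which gene came first in the fullest run rested on single libraries. That run started at position 27342 without each Zheng58 library in turn and after quantile normalization. It started at 27401 without apl replicate 1 and at 27437 without apl replicate 3. Positions 27342, 27354, 27358 and 27372 still passed in both of these fits, so there the fullest run moved while the earlier genes remained. The run started at 27092, left of the block, without apl replicate 2, and at 27101 with array weights. Position 27339 had 12.8, 19.1 and 13.6 TPM in apl and 5.08, 5.95 and 5.2 TPM in Zheng58, a log2 change of 1.31 ± 0.17 (SE). Position 27340 had 7.28, 11.6 and 6.3 TPM in apl and 3.81, 2.59 and 2.09 TPM in Zheng58, with no overlap, and did not pass. In all 4 identifiers from 27337 to 27340 every apl library was above every Zheng58 library, and in 27338, 27339 and 27340 apl replicate 2 was the highest of all.

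The largest difference of the block on the log2(TPM + 1) scale followed at position 27342 (Zm00001eb273420). It had 9.63, 16.9 and 9.72 TPM in apl and was listed at 0 in all 3 Zheng58 libraries, so no fold change is given. Apl replicate 2 again held the highest value. In the 5 tested genes between it and position 27351 the groups overlapped, and replicate 2 lay within the Zheng58 range or on the other side of it from its fellows. Position 27346, for example, had 34.7, 18 and 32.5 TPM in apl and 18.7, 17.2 and 17.2 TPM in Zheng58. Genes with and without agreement of the apl libraries were thus interleaved. After them, position 27351 had 150.7, 155 and 146.6 TPM in apl and 96.9, 100.4 and 94.5 TPM in Zheng58. This was the smallest change past the threshold in the block, 0.63 ± 0.09 log2 units (SE), carried by closely spaced values in both groups.

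Positions 27354 and 27358 lay 4 identifiers apart. Position 27354 had 22.3, 29 and 24 TPM in apl and 5.92, 6.37 and 5.96 TPM in Zheng58, a log2 change of 1.87 ± 0.13 (SE). Position 27358 had 5.21, 6.91 and 5.8 TPM in apl and 0.45, 0.4 and 0.53 TPM in Zheng58, a change of 2.25 ± 0.17 (SE). In both, apl replicate 2 was highest and the Zheng58 libraries were nearly equal.

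Position 27372 (Zm00001eb273720) had 13.7, 23.4 and 14.2 TPM in apl and 1.35, 1.51 and 2.02 TPM in Zheng58. Its log2 change of 2.75 ± 0.23 (SE) was the highest in the block among genes above 0 in at least 1 Zheng58 library and past the threshold. Position 27384 changed less, with 8.51, 7.1 and 7.99 TPM in apl and 3.76, 3.56 and 2.62 TPM in Zheng58, and here apl replicate 2 was the lowest of the apl libraries.

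A pair of adjacent identifiers closed the first group. Position 27401 had 4.95, 4.98 and 4.34 TPM in apl and 0.23, 0.01 and 0 TPM in Zheng58, so it was near 0 in every Zheng58 library. Position 27402 had 12.4, 15.6 and 12 TPM in apl and 2.96, 2.24 and 2.12 TPM in Zheng58, a log2 change of 2.06 ± 0.16 (SE). The 3 apl libraries were close to each other in both genes.

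**Figure D2:**
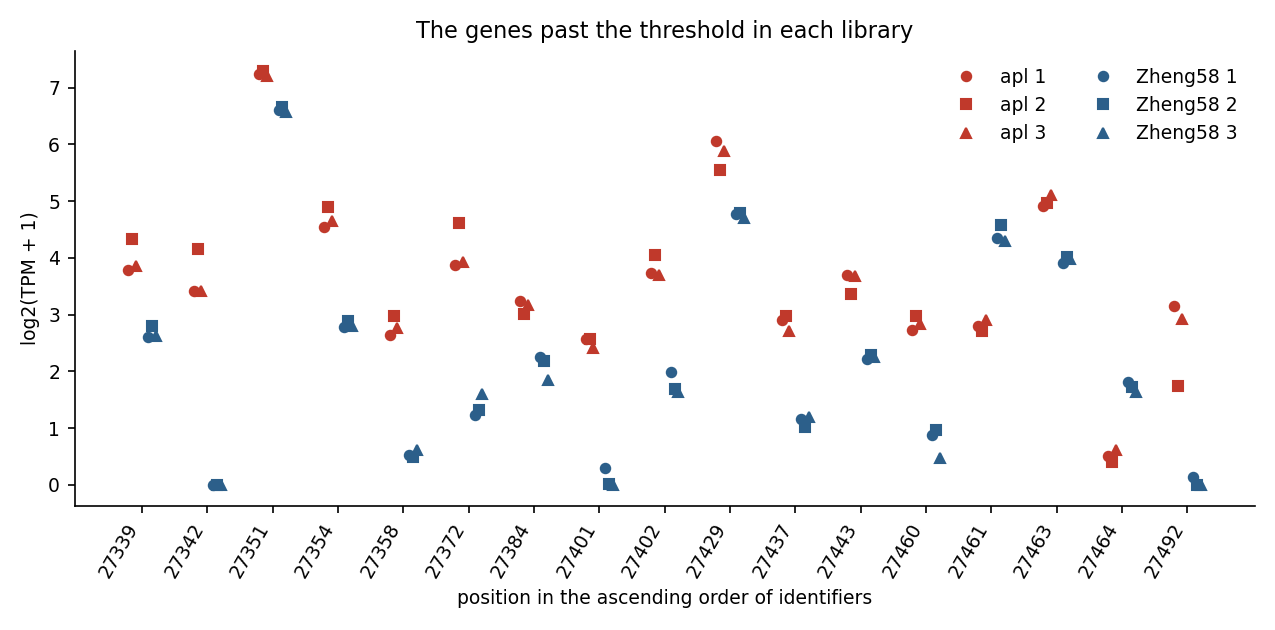
The 17 genes of the block past the threshold are shown in identifier order (x axis) with log2(TPM + 1) in each library (y axis), apl in red left of Zheng58 in blue, and a symbol for each replicate number. No apl value falls within the Zheng58 values of its gene, and positions 27461 and 27464 alone have apl below Zheng58.

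Between the first and second groups, positions 27403 to 27428 held 10 tested genes and none past the threshold. Of these, apl lay wholly above Zheng58 in 2 and wholly below in 3. Position 27419, the second most abundant gene of the block, had 365.2, 511.7 and 384.4 TPM in apl and 544.2, 576.1 and 567 TPM in Zheng58. It was lower in every apl library, least in replicate 2. Position 27427 had 12.7, 7.5 and 6.67 TPM in apl and 27.1, 22.5 and 21.7 TPM in Zheng58, a log2 change of -1.35 ± 0.24 (SE), which did not pass.

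The second group began at position 27429, with 65.8, 46.1 and 57.9 TPM in apl and 26.2, 26.8 and 24.9 TPM in Zheng58. Position 27437 had 6.49, 6.87 and 5.52 TPM in apl and 1.24, 1.04 and 1.3 TPM in Zheng58, a log2 change of 1.73 ± 0.15 (SE). Position 27443 had 12, 9.28 and 11.9 TPM in apl and 3.68, 3.87 and 3.76 TPM in Zheng58. At 27429 and 27443 apl replicate 2 was the lowest apl library yet still well above Zheng58.

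Both genes of the block that were lower and past the threshold stood within the 5 identifiers from 27460 to 27464, beside genes that were higher. Position 27460 had 5.67, 6.91 and 6.18 TPM in apl and 0.85, 0.96 and 0.39 TPM in Zheng58, a log2 change of 2.08 ± 0.19 (SE). Position 27461 (Zm00001eb274610) went the other way, with 5.95, 5.53 and 6.51 TPM in apl and 19.4, 22.8 and 18.7 TPM in Zheng58, a change of -1.60 ± 0.12 (SE). Directions thus differed between adjacent identifiers.

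Position 27463 had 29, 30.5 and 33.4 TPM in apl and 14, 15.2 and 14.8 TPM in Zheng58, a log2 change of 1.03 ± 0.10 (SE). Position 27464 (Zm00001eb274640) had 0.42, 0.32 and 0.54 TPM in apl and 2.52, 2.31 and 2.13 TPM in Zheng58, a change of -1.22 ± 0.19 (SE). Both groups were tight in these genes, and the identifiers from 27460 to 27464 that were tested all passed (4 of 4). Genes past the threshold set both ends of this stretch. The nearest tested genes outside it, positions 27455 and 27465, did not pass.

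The last gene past the threshold in the block, position 27492, had 7.9, 2.33 and 6.63 TPM in apl and 0.1, 0 and 0 TPM in Zheng58. Apl replicate 2 was the lowest apl library by a wide margin, which gave this gene the largest error of the 17, a log2 change of 2.56 ± 0.39 (SE). Beyond it, position 27496 had 5.53, 4.27 and 6.54 TPM in apl and 1.83, 2.28 and 1.71 TPM in Zheng58, without overlap and without passing.

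At the right edge the groups overlapped again. Position 27499 had 11.9, 7.24 and 10.5 TPM in apl and 9.25, 9.32 and 8.23 TPM in Zheng58. Position 27500 had 3.24, 1.79 and 7.64 TPM in apl and 2.38, 2.91 and 1.17 TPM in Zheng58. Outside it, positions 27503 and 27505 overlapped as well, with 6.5, 4.36 and 4.3 TPM in apl against 4.73, 2.91 and 4.64 TPM in Zheng58 for the nearer gene. Position 27509 had 10.8, 3.46 and 5.87 TPM in apl and 2.52, 3.14 and 2.94 TPM in Zheng58, above without overlap and without passing. The next gene past the threshold was position 27513, with 8, 4.68 and 5.84 TPM in apl and 14.3, 14.4 and 15.3 TPM in Zheng58. There all 3 apl libraries were lower.

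**Figure D3:**
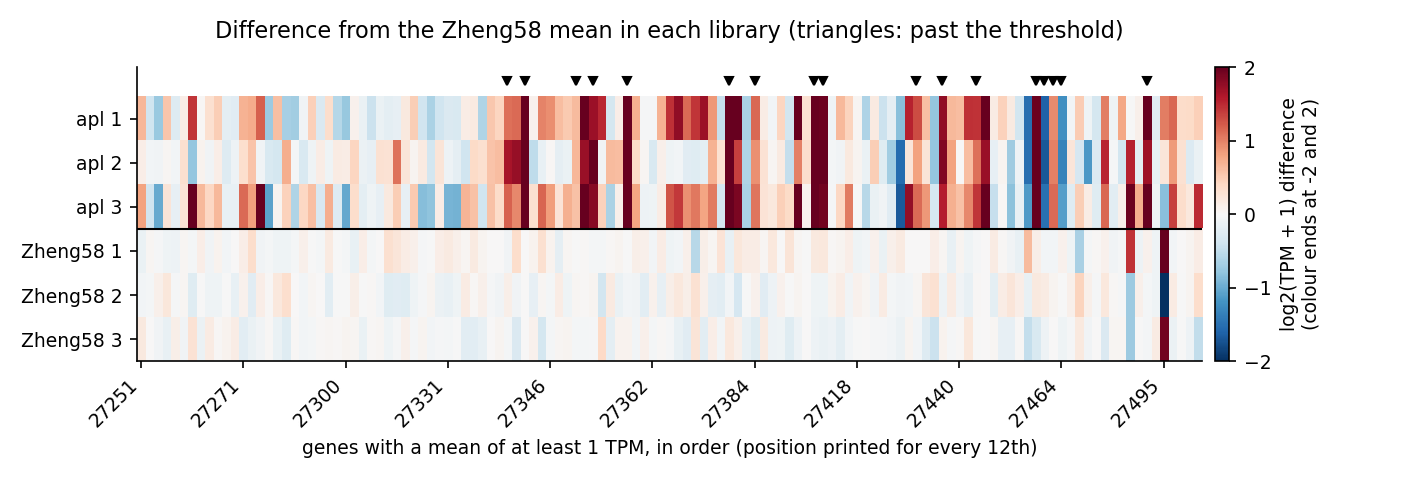
Each column is 1 of the 125 tested genes in identifier order, each row a library, and the colour is the difference in log2(TPM + 1) from the Zheng58 mean of that gene (red higher, blue lower), with triangles over the 17 genes past the threshold. Apl replicate 2 is pale where replicates 1 and 3 are coloured over much of the left part and at positions 27364 to 27368, and shares their colour at the triangles.

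Apl replicate 2 was set beside apl replicates 1 and 3 in every tested gene of the block. Its place was expressed as 0 at the Zheng58 mean and 1 at the mean of apl replicates 1 and 3, on the log2(TPM + 1) scale. Over the 125 genes the median place was 0.416, against 0.103 over all tested genes, and 0.214 in the block after quantile normalization. The place over all tested genes after that normalization is not given here, so 0.214 has no like background. It lay beyond the Zheng58 range on the side of the other apl libraries in 66 genes, within that range in 36, and beyond it on the opposite side in 23. These shares were 52.8%, 28.8% and 18.4%, against 39.3%, 32.4% and 28.2% of all tested genes. Since the threshold favours genes in which replicate 2 goes with the others, a raised share was built into the choice of the block.

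The place of replicate 2 was also followed along the block, with the ends of its parts set by genes past the threshold, which favours agreement inside them. From position 27251 to 27338 the median place was 0.176, and replicate 2 was beyond the Zheng58 range on the side of its fellows in 17 of 43 genes (39.5%) and on the opposite side in 13. From position 27339 to 27492 the median was 0.578, with 46 of 76 genes (60.5%) on the same side and 9 on the opposite side. Leaving aside the 17 genes past the threshold, all of which are on the same side, it was 29 of 59 genes (49.2%) with a median place of 0.372, against 38.5% and 0.0906 for such genes in the whole series. In the group from 27339 to 27402 the 29 genes not past the threshold had a median place of 0.0241, with 12 on the same side. Over all 38 tested genes of that group the median was 0.452. In the group from 27429 to 27464 the 11 genes not past the threshold had a median of 0.637, with 7 on the same side. Over all 18 tested genes of this second group the median was 1.02, with 14 on the same side, 4 within the range and 0 opposite. Of those 14, 7 were past the threshold. The 10 tested genes between the first 2 groups, none of which passed, had a median of 0.76 with 7 on the same side and 0 opposite.

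Among the 17 genes past the threshold, replicate 2 was always on the side of the other apl libraries, as the threshold largely requires with 3 libraries a group. It lay above both of them in 10 genes, below both in 6 and between them in 1. The genes below both include positions 27461 and 27464, where apl was lower and replicate 2 lay farther from Zheng58 than the others. The place of replicate 2 ran from 0.564 at position 27492 to 1.44 at position 27339, with a median of 1.1.

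**Figure D4:**
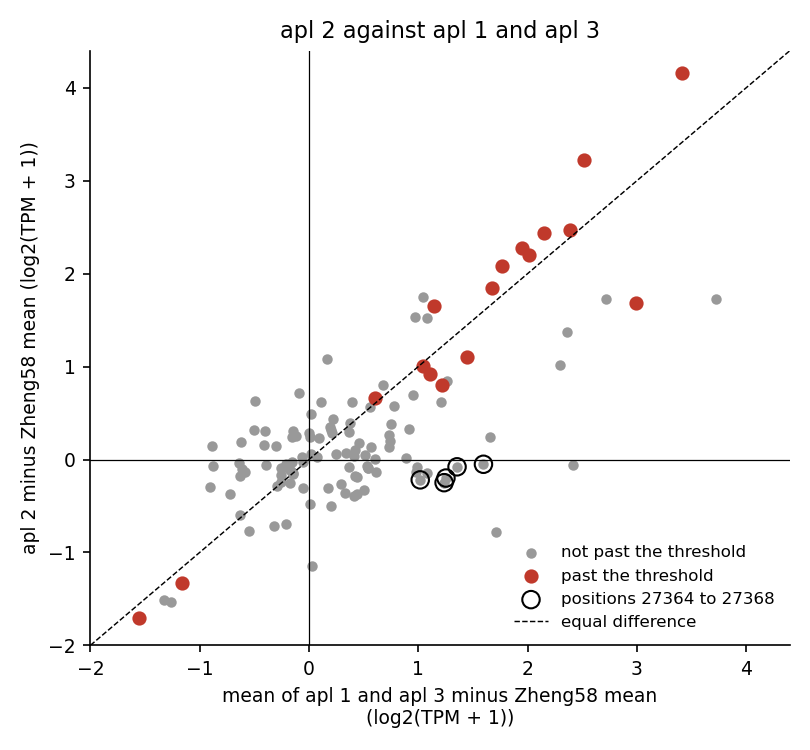
For the 125 genes, the difference of apl replicate 2 from the Zheng58 mean (y axis) is plotted against that of the mean of apl replicates 1 and 3 (x axis), both in log2(TPM + 1), with the 17 genes past the threshold in red and a dashed line of equality. Most red points lie near the line. Of them, positions 27342, 27372 and 27339 lie farthest above it, and position 27492 lies well below it. The circled genes at positions 27364 to 27368 lie to the right of 0 on the x axis and just below 0 on the y axis.

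A further 49 genes of the block passed only without apl replicate 2, 35 higher and 14 lower in apl. Replicate 2 was on the same side as the other apl libraries in 28 of them, within the Zheng58 range in 13 and on the opposite side in 8, and its median place was 0.232. In 6 of the 49 replicate 2 lay as far from Zheng58 as the mean of the other apl libraries or farther, among them positions 27337, 27338 and 27340. Of the genes not past the threshold with all libraries, 21 of 43 (48.8%) passed only without replicate 2 before position 27339 and 26 of 59 (44.1%) from position 27339 to 27492, against 33.8% of such genes in the whole series.

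Of the 5 largest such changes, 4 had replicate 2 at an intermediate level, the exception being position 27275 described above. Position 27353 had 15.4, 4.71 and 31 TPM in apl and 0.75, 0.75 and 0.67 TPM in Zheng58, a log2 change of 3.73 ± 0.29 (SE) without replicate 2. Position 27374 had 48.5, 16.9 and 24.6 TPM in apl and 7.16, 4.5 and 6.46 TPM in Zheng58, and position 27394 had 12.5, 4.34 and 11.6 TPM in apl and 1.72, 1.76 and 1.46 TPM in Zheng58. Position 27444 had 3.68, 2.32 and 8.26 TPM in apl and was listed at 0 in all 3 Zheng58 libraries. In these 4 genes every apl library, replicate 2 included, was above every Zheng58 library.

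A different pattern held for 5 consecutive identifiers in the middle of the first group, singled out after their values were seen. Position 27364 had 195.7, 67 and 170.7 TPM in apl and 66.4, 77.1 and 69.4 TPM in Zheng58. Position 27365 had 89.6, 24.5 and 69.3 TPM in apl and 24.3, 29.6 and 22.7 TPM in Zheng58. In both, apl replicates 1 and 3 were far above Zheng58 and replicate 2 was inside the Zheng58 range.

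The same held for the rest of them. Position 27366 had 38.7, 14.6 and 33.1 TPM in apl and 18.5, 18.7 and 14.6 TPM in Zheng58. Position 27367 had 41.3, 12.3 and 31.6 TPM in apl and 9.67, 18.5 and 17.8 TPM in Zheng58, and position 27368 had 81.9, 21.1 and 43 TPM in apl and 26.5, 26.1 and 20.8 TPM in Zheng58. Without replicate 2 the log2 changes of the 5 genes were 1.02 to 1.60, and the place of replicate 2 ran from -0.215 to -0.032. Whether neighbouring identifiers with like values share reads was not tested. The gene after them, position 27369, had 13.3, 11.7 and 15 TPM in apl and 7.08, 5.94 and 7.55 TPM in Zheng58, with replicate 2 again beside the other apl libraries.

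Genes listed at 0 in every Zheng58 library and above 0 in every apl library numbered 9 of the 250 identifiers, counted after the values were seen and with no limit on the mean. Of all identifiers in the series, 0.528% did so. The opposite, 0 in every apl library and above 0 in every Zheng58 library, held for 0 of the 250, against 0.26% of the table. Positions 27342 and 27444 were among the 9, and the other 7 had means under 1 TPM. Position 27413 had 2.32, 0.76 and 1.36 TPM in apl, position 27412 had 1.19, 0.97 and 0.83 TPM, position 27474 had 1.09, 1.08 and 0.65 TPM and position 27451 had 1.05, 0.46 and 1.61 TPM. Those at positions 27360, 27458 and 27498, had apl values of 0.01 to 1.38 TPM, most of them under 0.5. All 9 lay at or after position 27342, and neither neighbouring block of 250 held a gene of this kind in either direction. At shares this low, 0 in a block of 250 says little. The block was also chosen by genes mostly higher in apl, which favours the first direction.

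Levels in Zheng58 are given as a description only, since genes higher in apl chose the block and some reached the mean of 1 TPM through apl alone. From position 27339 to 27492 the median apl mean was 6.69 TPM and the median Zheng58 mean 3.24 TPM, while for positions 27251 to 27338 these were 12.3 TPM in apl and 14.9 TPM in Zheng58. Over all tested genes the medians were 9.54 TPM in apl and 8.7 TPM in Zheng58. The read support of values near 0 is unknown.

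Differences of at least 1 log2 unit were found in 26 genes of the block upwards and 4 downwards, 24 and 4 of them between positions 27339 and 27492. Over all tested genes 5.36% reached that size upwards and 2.75% downwards. The block was chosen by differences in these same libraries, so the values given here describe that choice. In the block as a whole 84 of the 125 genes were higher in apl and 41 lower, against 11041 and 9370 of the 20411 tested genes. The median log2 change was 0.25, against 0.04 over all tested genes. The apl libraries lay wholly above Zheng58 in 39 genes and wholly below in 15, or 31.2% and 12% of the 125. Over all tested genes the shares were 12.7% and 14.6%.

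The blocks of 250 on both sides held fewer genes past the threshold, which the choice of this block by that number largely fixed. On the left, positions 27001 to 27250 had 101 tested genes with 1 past the threshold, lower in apl. On the right, positions 27501 to 27750 had 90 tested genes with 1 past the threshold, also lower. Their shares of 0.99% and 1.11% were near the 1.41% of the whole table. Without apl replicate 2, 29.4% and 31.2% of their tested genes passed, also near the 34.8% of the table. The median place of apl replicate 2 was 0.172 on the left and 0.166 on the right, close to the 0.176 of the block's own left part.

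**Figure D5:**
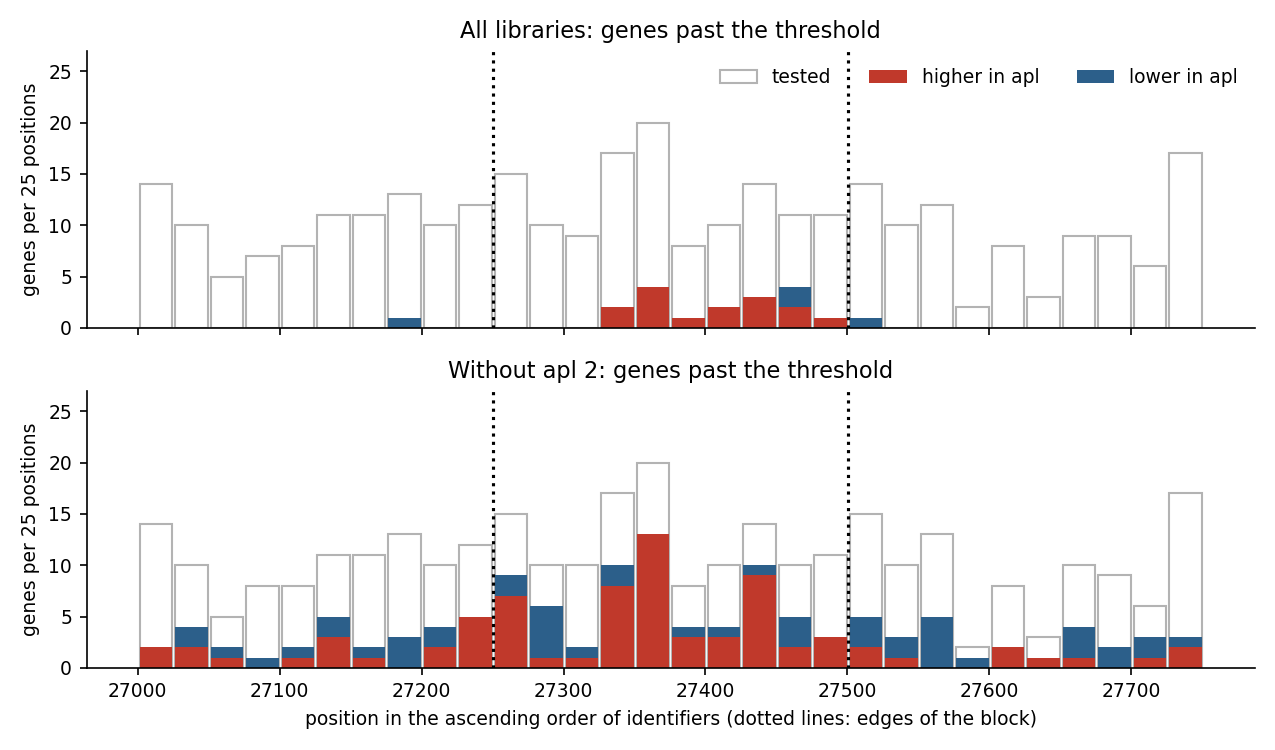
Bars count genes per 25 identifier positions (y axis) in the block and in the 250 positions on each side (x axis), for all libraries (top) and without apl replicate 2 (bottom), with tested genes outlined and genes past the threshold filled red (higher in apl) or blue (lower). With all libraries the filled bars stand between positions 27326 and 27525 with 1 exception on the left at position 27179, while without apl replicate 2 each bar of the range holds some.

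The 125 identifiers with a mean under 1 TPM complete the block. Of these, 54 were listed at 0 in all 6 libraries and 71 had some value, 24 of them 1 TPM or more in at least 1 library. In 16 of the 125 every apl library was above every Zheng58 library and in 5 every apl library was below. The like shares among all 23892 identifiers under that mean were not counted, so these counts have no background. Just above the limit, position 27466 had 1.53, 0.41 and 1.5 TPM in apl and 0.13, 1.42 and 1.03 TPM in Zheng58, and position 27455 had 0, 0 and 0.3 TPM in apl and 3.41, 1.57 and 1.05 TPM in Zheng58. Just below it, positions 27282 and 27309 had 0.83 to 1.56 TPM in apl and 0.34 to 1.2 TPM in Zheng58. Of these 4 genes, position 27455 alone had groups that did not overlap.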

How the data were processed

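The authors deposited 1 table of TPM values, with 1 column for each of the 6 libraries and no pooling. The submitters' processing notes name RSEM, HISAT2, DESeq2 and Trimmomatic 0.36, with no role or order. The build and annotation were not given in the sources used here. These values are a share of a whole, scaled by transcript length, so abundant transcripts move the values of others and reads shared by similar genes may be split between them.

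Identifiers were sorted and the block taken by position. Genes averaging 1 TPM or more over the 6 libraries were fitted on the log2(TPM + 1) scale with limma 3.58.1 in R 4.3.3 (genotype as the only term, mean-variance trend, two-sided, Benjamini-Hochberg over all tested genes, threshold 0.05). The fit was tested on simulated data and, with all 6 libraries, recovered 42% of genes changed by 1 log2 unit and 92% of those changed by 4. A gene that did not pass may therefore still differ. The simulation gave every library the same spread, unlike these data, in which apl replicate 2 stood apart. The fit was repeated with other pseudocounts, filters, scalings and variance models, a replicate block, and each library left out. A log2 change is apl minus Zheng58 and understates changes of low genes. The block and the counts in it were chosen with earlier results of these data known. Genes described with values in every library are those past the threshold, the 5 largest changes among genes that passed only without apl replicate 2 and had at least 5 TPM in the higher group, those at the edges of the block and at the limit of 1 TPM, and the 3 most abundant; others named along the order were chosen after their values were seen. Identifiers are printed for 4 genes only. No batch or date is given, so no analysis within batches was made.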

Additional observations from a re-analysis of the deposited data

How the results depend on the processing

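Pseudocounts of 0.1 and 5 TPM, no filter, both rescalings, no trend and a 2-fold limit gave 16 to 19 genes past the threshold in the block, against 17, with 1 lower gene in place of 2 at a pseudocount of 0.1 TPM. A mean of at least 5 TPM tested 77 genes of the block and gave 10, 9 higher and 1 lower. Array weights gave 57 in the block, 44 higher and 13 lower, and 5592 of all tested genes. Leaving out 1 library at a time gave 9 to 66 in the block, 8 to 50 higher and 1 to 16 lower, and 84 to 7140 over all tested genes, against 287. The fullest run spanned 64 positions (27339 to 27402); it spanned 136 with no filter, 34 with a mean of at least 5 TPM, 425 with array weights, 27 to 373 with 1 library left out, 20 with a joining limit of 10 positions, and 175 with a limit of 50 or 100. The cause was not tested. Some of these fits held fewer genes or libraries. With a replicate block 1 gene of the block passed (1 higher, 0 lower, a run of 1 position) and 25 overall; the block takes degrees of freedom, and the shared numbers showed no pairing, with correlations of the deviations of same-numbered libraries at -0.04, 0.05 and -0.02. In 266 combinations of the 17 genes and the alternatives, 203 kept direction and threshold, 63 fell short of the threshold and 0 reversed. The groups did not overlap in any of the 17, so leaving out a library or changing the pseudocount could not reverse a direction. Without apl replicate 2, 66 genes passed, 60 to 66 under other scalings and pseudocounts and 45 to 56 with 1 more library left out, alternatives chosen after the data were seen; with 1 apl library left, that library is assumed to vary like the rest. Of 43 combinations for the 5 genes named from that fit, 38 were unchanged, and position 27275 made up the 5 that fell short. The median place of apl replicate 2 was 0.374 to 0.427 under other pseudocounts and median-of-ratios rescaling, and 0.214 after quantile normalization. The unknown depth limits what can be said of values near 0.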

Other observations

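A few genes of the block stood out in single libraries, noticed after the values were seen and with no test made. Position 27495 had 35.5, 20.2 and 9.12 TPM in apl and 83.8, 0 and 67.6 TPM in Zheng58, so that Zheng58 replicate 2 was listed at 0 where the others were high. Position 27485 had 0.64, 3.8 and 5.43 TPM in apl and 3.51, 0 and 0 TPM in Zheng58. Position 27468 was the 1 tested gene of the block in which apl replicate 2 lay at least 2-fold below all other libraries on the log2(TPM + 1) scale, with 0.75 TPM in it, 2.63 and 3.29 TPM in apl replicates 1 and 3, and 2.77, 3.14 and 2.69 TPM in Zheng58. In 0 tested genes of the block did it lie as far above them.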
